A study of Rattus norvegicus with 18 samples.

Results

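The 10 genes described here are immediate early genes, the first genes a neuron transcribes when it is excited. They were taken as a named set, Fos, Fosb, Junb, Egr1, Egr2, Arc, Nr4a1, Npas4, Bdnf and Dusp1, and matched to the array by gene symbol, so 10 of the 21563 gene symbols on the array belong to it. Each of the 10 was measured by 1 probe. No cut on a measured value defined the set, but it was named with earlier results of these data known. The 10 symbols were followed over time and over both lentiviruses.

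Calcium entry through synaptic receptors and voltage-gated channels activates calmodulin-dependent kinases and the MAP kinase cascade, and these phosphorylate transcription factors such as CREB and the SRF-bound ternary complex factors that already sit on immediate early gene promoters. Transcription therefore starts without new protein synthesis, peaks early and falls back as feedback inhibitors accumulate. The products are of different kinds. Fos, Fosb and Junb encode subunits of the AP-1 transcription factor, Egr1 and Egr2 encode zinc finger factors, Npas4 and Nr4a1 encode a basic helix-loop-helix factor and an orphan nuclear receptor, Arc acts at the synapse, Bdnf encodes a secreted neurotrophin, and Dusp1 encodes a phosphatase that inactivates MAP kinases.

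Primary cortical neurons were prepared from E18 rat embryos, plated, infected on day 1 with pLKO.1 lentivirus for 6 h and harvested on day 5, 9 or 12. One lentivirus carried the Scramble control shRNA, and the other carried a single shRNA against CHD5, a chromatin remodeling enzyme of the Mi2 family found in neurons. All 6 groups therefore went through the same infection, and no uninfected neurons are part of the comparison. Each group holds 3 arrays, lettered a, b and c, and values are given below in that order. Total RNA was labelled and hybridised to Illumina RatRef-12 bead arrays, which hold 22523 probes. The CHD5 shRNA is 1 sequence, and the array holds no probe with the symbol Chd5, so depletion of the target could not be read from these arrays.

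Nothing in the sources used here states that replicates came from separate cultures, so the p-values below measure the spread between these samples, which may be technical. A probe was kept if its deposited detection p-value was at most 0.02 on at least 1 of the 18 arrays, which left 11079 probes. Values are given as normalized signal, the signal after each array's log2 values were brought to the same mean and standard deviation. Differences are on the log2 scale of that signal, from 1 limma fit over all 18 arrays, with a standard error (SE) and a p adjusted over the 11079 probes. A difference with an adjusted p under 0.05 is said to have passed the test. One array stood apart, replicate b of the control at day 9. Its mean signal was 135 against 400.2 to 789 on the other 17, and it detected 7047 probes against 8360 to 9931. The scaling stretched its narrow range of signals, which raised probes near background on that array, and results that use it are given without it as well where a call changed.

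Of the 10 genes, 8 had a kept probe. Egr1, Egr2, Bdnf and Dusp1 were detected on all 18 arrays, and Fos and Junb were detected on 17, the missing one being the dim control array at day 9. Npas4 was detected on 6 arrays, all of them from day 5. Arc was detected on 3 arrays, of which 2 were day 5 controls and the other was the dim array. Fosb and Nr4a1 were detected on none, so their signals, 63.7 to 81.3 for Fosb and 76.4 to 100.6 for Nr4a1 outside the dim array, are background. On the dim array the scaled background of these probes read 135 and 124. Without a detection filter, no comparison gave Fosb or Nr4a1 an adjusted p under 0.187 in limma.

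**Figure D1:**
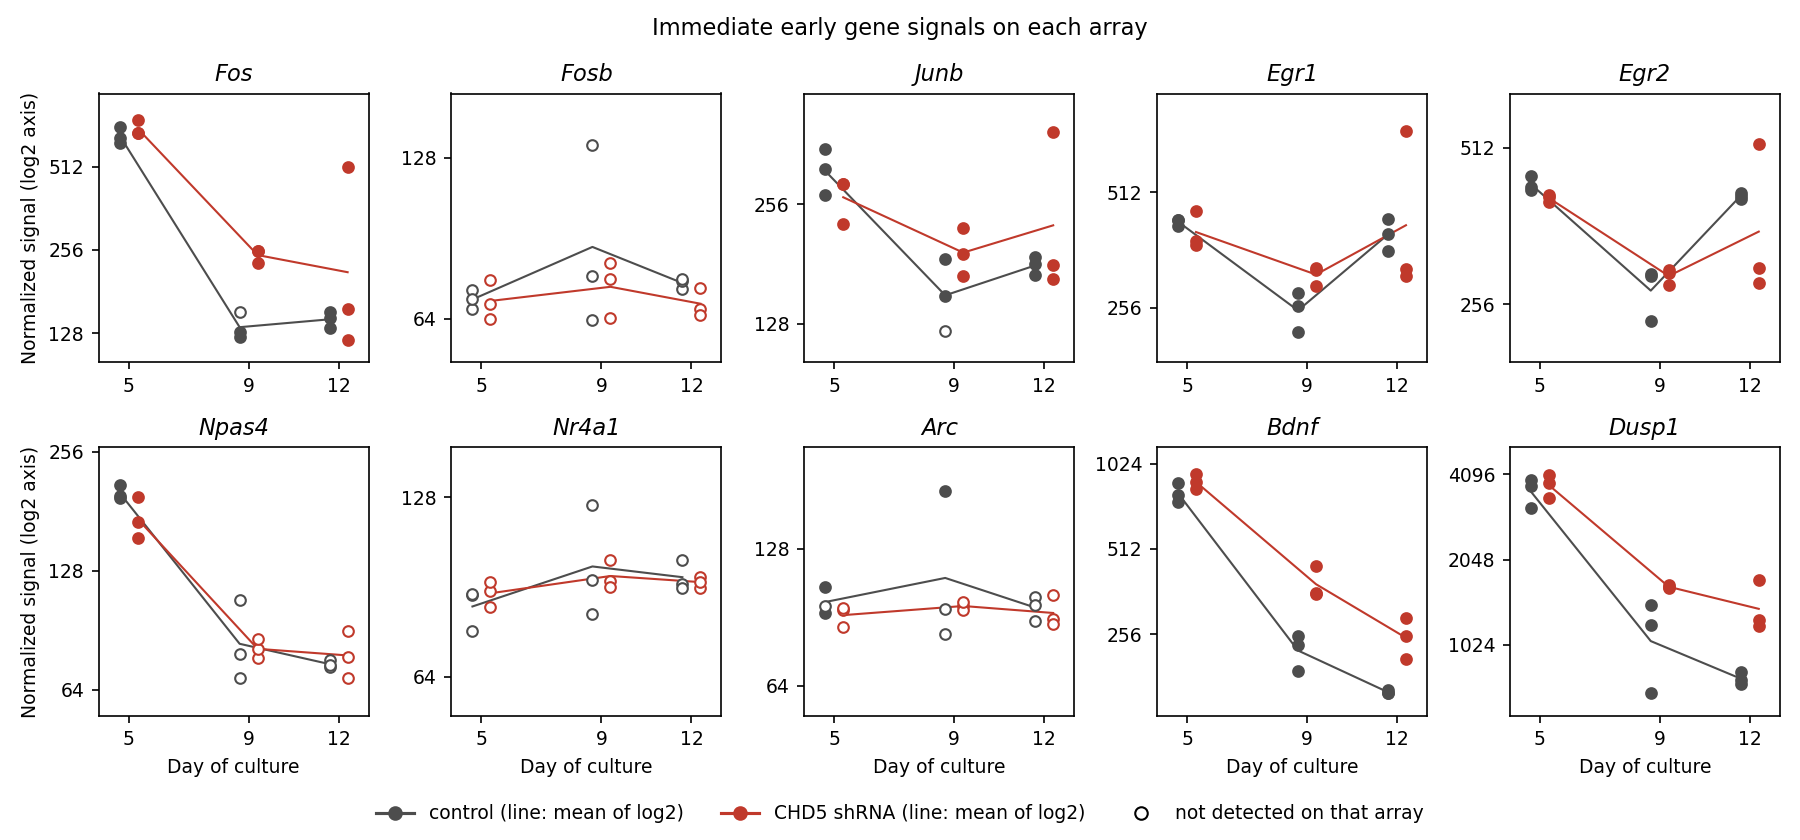
Normalized signal of each of the 10 genes on a log2 axis against the day of culture, 1 point per array and 3 arrays per group, with grey for the control lentivirus, red for the CHD5 shRNA and open points where the probe was not detected. Fos, Npas4, Bdnf and Dusp1 fell after day 5 in both lentiviruses, and 1 red point at day 12, replicate c, lies far above the other 2 for Fos, Junb, Egr1 and Egr2.

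The first question was how these genes change as control neurons mature. From day 5 to day 9 in the control, 7 of the 8 genes with a kept probe passed the test and all 7 were lower, where 12.8% of all kept probes were called lower and 9.18% were called higher. The median difference of the 8 was -1.15 against 0.01 over all kept probes. Npas4 had been kept only through its day 5 arrays, so a difference in that gene was built into the filter. Without it 6 of 7 were lower, with a median of -1.04. In the 7 genes that passed, Npas4 included, the 3 arrays of day 9 lay below the 3 arrays of day 5. This held for 14.9% of the kept probes. In bulk RNA, fewer cells that express a gene and less RNA in each of them cannot be told apart. The count remained 7, Npas4 included, without the dim array, where 10.1% of kept probes were called lower and 10.6% were called higher. The differences were then -2.44 for Fos, -0.91 for Junb, -0.69 for Egr1, -0.60 for Egr2, -1.49 for Npas4, -1.77 for Bdnf and -1.48 for Dusp1. Their adjusted p values ran from 3.37e-09 to 0.0427 in limma. With array weights, which give noisier arrays less influence, 3 passed, and Fos (adjusted p = 0.0609), Junb (0.209), Egr1 (0.444) and Egr2 (0.351) did not. The 3 were Bdnf, Dusp1 and Npas4, the last being the gene whose fall was built into the filter.

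Fos, the AP-1 subunit most used as a mark of recent activity, fell after day 5. Its normalized signals in the control were 623, 652 and 714 on day 5, 129, 152 and 124 on day 9 and then 152, 145 and 133 on day 12. The day 5 arrays stood well clear of the others, while the arrays of days 9 and 12 overlapped. Fos was 4.93-fold lower at day 9 than at day 5, a log2 difference of -2.30 (SE 0.32, adjusted p = 6.13e-05, limma), and 4.61-fold lower at day 12. The signals carry no background subtraction, so folds of dim probes depend on the processing. Over the alternatives other than leaving out an array, the difference to day 9 ran from -3.16 to -2.24. As deposited, without any scaling, the Fos signals were between 721 and 994 at day 5 and between 147 and 161 at day 12. Junb, the AP-1 subunit that dimerises with Fos, read 352, 269.96 and 314 on day 5, 186, 123 and 149.97 on day 9 and then 170.1, 188 and 180.4 on day 12. It fell by 1.04 to day 9 (SE 0.24, adjusted p = 0.0044, limma) and at day 12 all 3 arrays still lay below those of day 5, by 1.73-fold. That day 12 difference did not pass without control replicate a of day 5 (adjusted p = 0.0792) or replicate a (0.0689) or c (0.0539) of day 12, with neqc (0.0884), without a detection filter (0.0878) or with array weights (0.0966) in limma.

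Npas4 encodes a factor that is induced by calcium entry and hardly by other stimuli. Its control signals were 198, 196 and 210.4 at day 5, all detected, and 68.5, 108 and 79.0 at day 9 and 76.1, 73.1 and 73.8 at day 12, none detected. With the day 9 and day 12 probes not well above background, only a bound can be given. Npas4 was at least 1.74-fold higher at day 5 than at day 9 and at least 1.88-fold higher than at day 12, values given without a test because detection at day 5 alone had kept the probe. Arc, whose protein regulates AMPA receptor traffic at the synapse, read 92.6, 105 and 95.7 on day 5, 83.3, 171 and 94.4 on day 9 and then 100.4, 96.2 and 89.0 on day 12. These signals sit at the edge of detection, and the value of 171 belongs to the dim array. Its difference from day 5 to day 9 was 0.18 with that array and -0.14 without it, and neither passed the test.

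Bdnf, the neurotrophin that signals through TrkB, fell in 2 steps. The control signals were 880.4, 749 and 796 on day 5, 253, 189.7 and 234 on day 9 and then 158, 162 and 159 on day 12. No array of one day overlapped with an array of another. Bdnf was 3.60-fold lower at day 9 than at day 5 (log2 difference -1.85, SE 0.13, adjusted p = 2.3e-08, limma) and 5.06-fold lower at day 12, and the further fall from day 9 to day 12 was 0.49 (adjusted p = 0.0402). Dusp1, the MAP kinase phosphatase, read 3123, 3905 and 3713 on day 5, 1419.7, 691 and 1202 on day 9 and then 747, 769 and 821 on day 12. The value of 691 came from the dim array and lies below all 3 arrays of day 12. Dusp1 was 3.37-fold lower at day 9 and 4.58-fold lower at day 12 than at day 5, with adjusted p values of 5.33e-06 and 1.19e-07 in limma. Its step from day 9 to day 12 was -0.44 (adjusted p = 0.218) with the dim array and -0.76 (adjusted p = 0.0016) without it.

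Egr1 and Egr2 followed another course. Control Egr1 signals were 434, 419 and 434 on day 5, 279, 222 and 259 on day 9 and then 436, 361 and 399.9 on day 12. Control Egr2 signals were 452, 425 and 431 on day 5, 292, 237 and 289 on day 9 and then 414, 419.5 and 409 on day 12. On all 3 arrays of day 9 both genes lay below every array of days 5 and 12. The difference from day 5 to day 9 was -0.77 for Egr1 (SE 0.22, adjusted p = 0.0192) and -0.68 for Egr2 (SE 0.16, adjusted p = 0.00569) in limma. The call for Egr1 was lost with quantile normalization (adjusted p = 0.0547), with neqc (0.0571) and without control replicate a of day 5 (0.0544), and that for Egr2 when only the arrays compared were fitted (0.0589). From day 9 to day 12 Egr2 rose by 0.61 (adjusted p = 0.0383), and the value for Egr1 was 0.66 (adjusted p = 0.11). Between day 5 and day 12 the difference was -0.11 for Egr1, with a 95% interval of -0.57 to 0.35, and -0.07 for Egr2, with an interval of -0.41 to 0.26. Without the dim array the rise of Egr2 was 0.52 and no longer passed (adjusted p = 0.0677).

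Over the whole set, 2 of 8 genes passed from day 9 to day 12 in the control, Egr2 upwards and Bdnf downwards, where 2.95% of kept probes were called higher and 1.21% were called lower. Neither of these passed when control replicate c of day 9 or any 1 of the 3 day 12 controls was left out, nor with median centring or without a detection filter. Between day 5 and day 12 in the control, 5 of 8 were lower and none higher, Fos, Junb, Npas4, Bdnf and Dusp1, against 12.5% of kept probes called lower and 11.1% called higher. Without Npas4, whose fall was built into the filter, it was 4 of 7.

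The Egr1 and Egr2 promoters are shown because these were the 2 genes of the set that passed as lower at day 9 but not at day 12 in the control. RefSeq on the GRCr8 assembly gave promoter windows for 8 of the 10 genes, 13 windows in all with 6 for Bdnf, and none for Fos or Arc. Each window holds the 250 bases before a start and a short stretch after it, and was searched whole on both strands. The motifs were the CRE bound by CREB (TGACGTCA), the short CRE core TGACG within it, the CArG box bound by SRF, the AP-1 site TGANTCA and the EGR site GCGNGGGCG. Shares over all windows count matches in the whole window, and every match in the set lay before the start. Coordinates and sequences given here are of the 250 bases before the start. In the sequences printed here, capitals mark CRE, short CRE and CArG matches, and a short CRE on the other strand reads CGTCA. The Egr1 window is chr18:26736828-26737077 on the plus strand and the Egr2 window is chr20:21054442-21054691 on the minus strand, both written 5′ to 3′ towards the start.
Egr1: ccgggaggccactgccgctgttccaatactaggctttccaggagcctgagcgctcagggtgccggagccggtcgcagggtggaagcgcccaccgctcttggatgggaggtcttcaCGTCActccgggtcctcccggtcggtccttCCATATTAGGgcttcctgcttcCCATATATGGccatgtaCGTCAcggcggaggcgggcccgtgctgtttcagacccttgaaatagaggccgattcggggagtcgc
Egr2: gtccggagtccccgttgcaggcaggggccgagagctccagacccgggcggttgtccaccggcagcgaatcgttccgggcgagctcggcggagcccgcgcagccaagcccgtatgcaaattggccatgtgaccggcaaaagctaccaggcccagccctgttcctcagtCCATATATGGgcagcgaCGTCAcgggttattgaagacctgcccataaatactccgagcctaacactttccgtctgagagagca

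Egr1 held CArG boxes starting 105 and 83 bases before the start, and Egr2 held 1 at 83. Both held a short CRE at 66. CArG boxes were present in 2 of the 13 windows, these same ones, and in 1.63% of the 33365 windows of all rat promoters in the table. A short CRE was present in 6 of the 13 windows, 1 each of Bdnf, Dusp1, Egr1, Egr2, Junb and Nr4a1, and in 21.2% of all windows. These matches are a description of letters in a window, and binding was not measured here.

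Dusp1 and Bdnf are shown because they were the 2 genes whose level differed between the lentiviruses, as described further on. The Dusp1 window is chr10:17184603-17184852 on the plus strand, and of the 6 Bdnf windows the one with a short CRE is printed, chr3:116637608-116637857 on the plus strand, with the same use of capitals.
Dusp1: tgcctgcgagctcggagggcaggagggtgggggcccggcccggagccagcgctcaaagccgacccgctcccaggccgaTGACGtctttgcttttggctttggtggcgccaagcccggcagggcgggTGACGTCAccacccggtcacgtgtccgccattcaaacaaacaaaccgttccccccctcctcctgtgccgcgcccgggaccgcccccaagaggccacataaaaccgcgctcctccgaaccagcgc
Bdnf: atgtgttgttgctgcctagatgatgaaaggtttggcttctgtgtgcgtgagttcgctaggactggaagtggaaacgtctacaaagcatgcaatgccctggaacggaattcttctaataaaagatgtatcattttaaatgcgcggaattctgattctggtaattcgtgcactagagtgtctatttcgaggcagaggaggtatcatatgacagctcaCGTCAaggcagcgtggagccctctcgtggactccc

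Dusp1 was the 1 gene of the set with a full CRE, starting 124 bases before its start, where 1.83% of all windows held one. It had a further short CRE at 172. The Bdnf window printed held its short CRE at 35, and another Bdnf window held an AP-1 site at 152, a motif found in 7.34% of all windows. An EGR site was found in the Nr4a1 window alone, at 73, and in 4.99% of all windows.

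**Figure D2:**
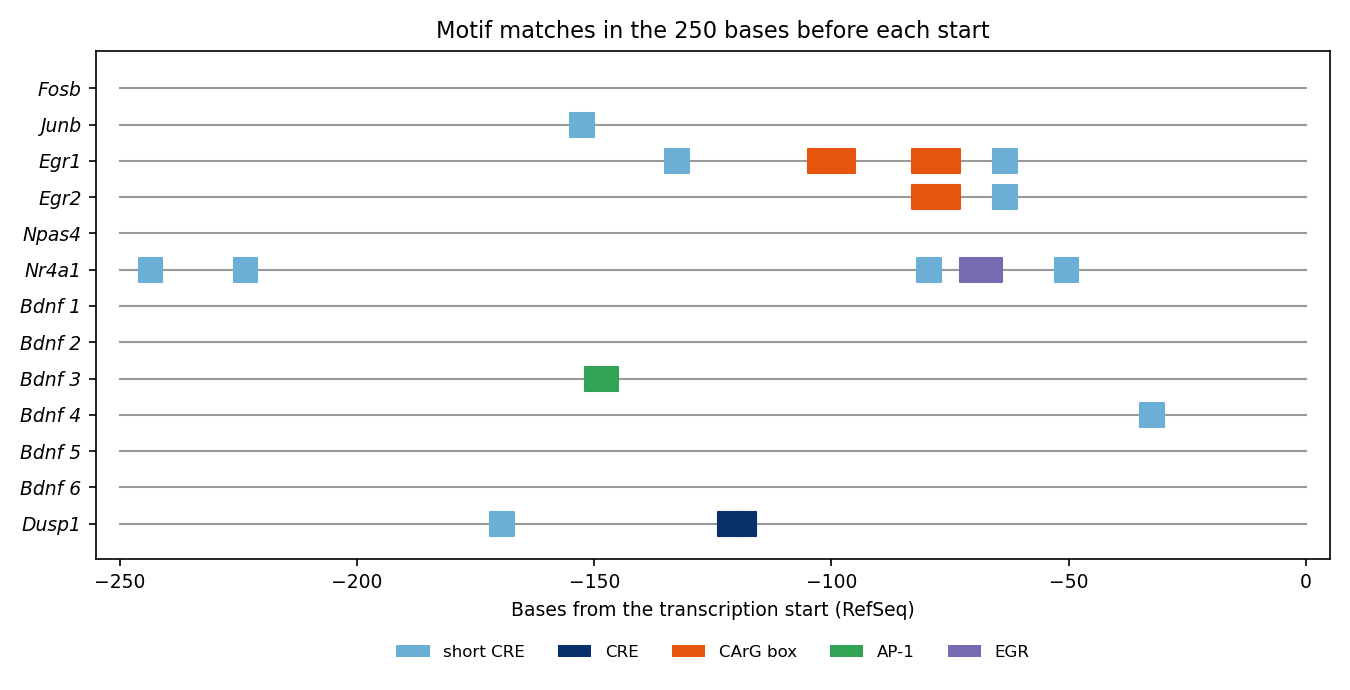
Motif matches in the 250 bases before the transcription start, with 1 grey line per RefSeq window, the 6 Bdnf windows numbered in order along the chromosome, and the distance from the start in bases on the horizontal axis. Egr1 and Egr2 carry a CArG box and a short CRE at the same distances, 83 and 66, and Dusp1 carries the only full CRE.

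The same courses were then read in neurons that carried the CHD5 shRNA. From day 5 to day 9, 4 of the 8 genes were lower and none higher, Fos, Npas4, Bdnf and Dusp1, against 4.72% of kept probes called lower and 4.61% called higher. Without Npas4, which had been kept only through its day 5 arrays, it was 3 of 7. The arrays of day 9 lay below those of day 5 in 7 of 8, Npas4 included and all except Arc, where this held for 21.2% of kept probes. The median difference of the 8 was -0.79, or -0.50 without Npas4, against 0.02 over all kept probes. At day 12, too, the same 4 genes were lower and none higher, where 8.56% of kept probes were called lower and 8.46% were called higher, or 3 of 7 without Npas4. Only Bdnf passed between days 9 and 12, downwards, against 0.415% called lower and 0.957% called higher, and that call was lost without CHD5 shRNA replicate c of day 9 or replicate a or b of day 12.

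Fos signals with the CHD5 shRNA were 752, 679 and 678 on day 5, 229, 254 and 252 on day 9 and then 156, 120 and 509 on day 12. The 3 arrays of day 9 lay close together, and at day 12 replicate c stood far above the other 2. Fos was 2.87-fold lower at day 9 than at day 5 (log2 difference -1.52, SE 0.32, adjusted p = 0.00576, limma). Between days 9 and 12 it gave -0.21, which did not pass, and without replicate c of day 12 the difference was -0.84 (adjusted p = 0.00479). Npas4 read 155, 196 and 170.1 at day 5, all detected, and between 68.5 and 89.9 at the later days, none detected. It was at least 1.56-fold higher at day 5 than at day 9 and at least 1.59-fold higher than at day 12, again as a description.

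Bdnf with the CHD5 shRNA read 940.2, 834 and 882 on day 5, 358, 356 and 446 on day 9 and then 251, 209 and 291 on day 12. The order of days was the same as in the control, with no overlap between days. It was 2.30-fold lower at day 9 than at day 5 (SE of the log2 difference 0.13, adjusted p = 1e-05, limma) and fell by a further 0.63 to day 12 (adjusted p = 0.0166). Dusp1 read 3378, 4089 and 3828 on day 5, 1639, 1659.8 and 1629 on day 9 and then 1249, 1191 and 1738 on day 12. Its day 9 arrays were almost level, and replicate c of day 12 was above all of them. Dusp1 was 2.28-fold lower at day 9 and 2.73-fold lower at day 12 than at day 5, with adjusted p values of 0.000869 and 3.66e-05 in limma.

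Junb, Egr1 and Egr2 gave smaller values here. Junb read 228, 288 and 288 on day 5, 192, 169 and 222 on day 9 and then 180.3, 165 and 389 on day 12. Egr1 read 458, 374 and 383 on day 5, 326, 322 and 292 on day 9 and then 311, 322 and 739.9 on day 12. Egr2 read 411, 415 and 403 on day 5, 298, 278 and 294 on day 9 and then 281, 299.97 and 521 on day 12. In all 3 genes day 9 lay below day 5 on every array, and at day 12 replicates a and b stayed near the day 9 level while replicate c exceeded every day 5 array. The differences between days 5 and 9 were -0.46, -0.37 and -0.50, with adjusted p values of 0.244, 0.34 and 0.059 in limma. The shared error of that fit includes the spread of day 12. With only the arrays of days 5 and 9 fitted, all 3 genes passed at the same differences. Junb then had an SE of 0.12 (adjusted p = 0.0104), Egr1 of 0.10 (0.0131) and Egr2 of 0.08 (0.00069) in limma. Without replicate c of day 12, Junb (-0.62, adjusted p = 0.0223) and Egr2 (-0.50, adjusted p = 0.00425) were lower at day 12 than at day 5. That made 6 genes that passed, Npas4 included.

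**Figure D3:**
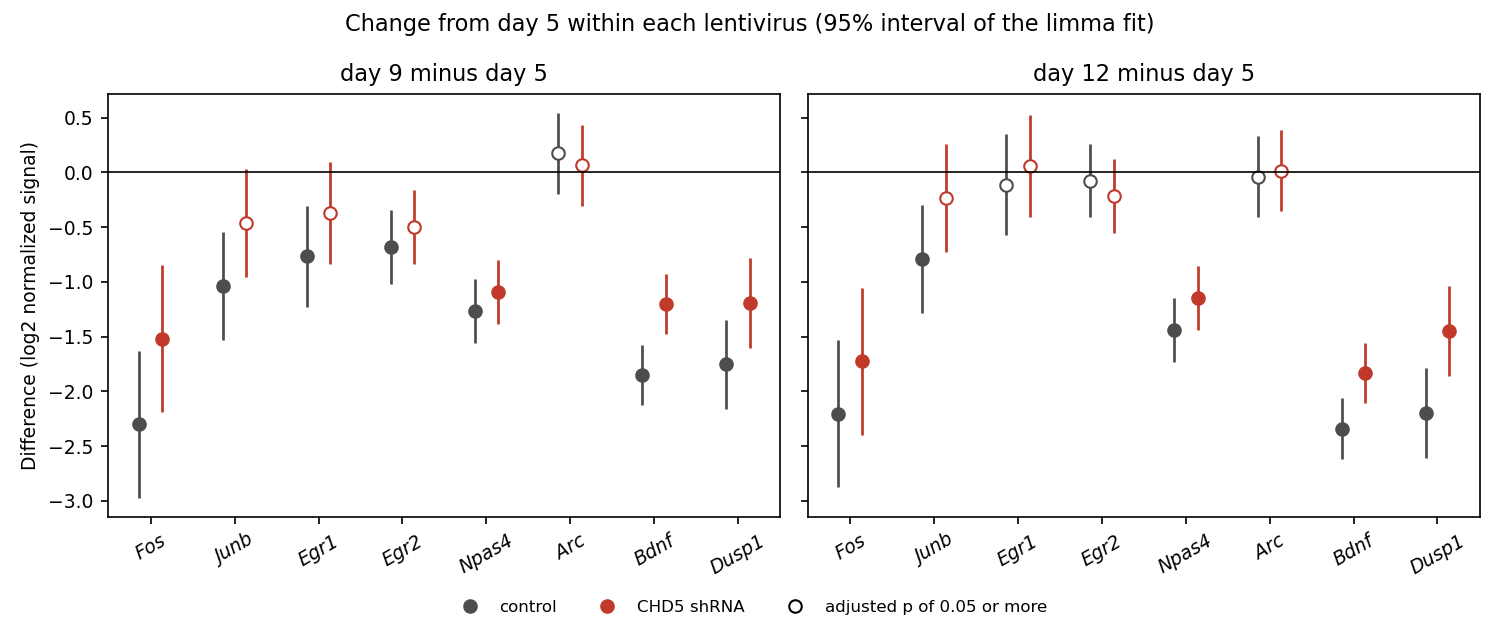
Log2 difference in normalized signal of day 9 (left) and day 12 (right) from day 5, for the 8 genes with a kept probe, in the control (grey) and with the CHD5 shRNA (red). Points are limma estimates with 95% intervals, filled where the adjusted p is under 0.05, and the fall of Fos, Npas4, Bdnf and Dusp1 is filled in both lentiviruses at both times. Npas4 had been kept only through its day 5 arrays, so its fall was built into the filter.

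The second question was what the CHD5 shRNA changed against the control at each day. At day 5 none of the 8 genes passed, all with adjusted p = 0.999 in limma, where 0.126% of kept probes were called lower and 0.0451% were called higher, 627 kept probes having an unadjusted p under 0.05. The differences ran from -0.22 for Junb and Npas4 to 0.13 for Bdnf, and the interval for Bdnf was -0.14 to 0.41. The intervals for Fos, -0.59 to 0.76, and Dusp1, -0.34 to 0.48, leave room for differences of a size seen later.

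At day 9, Bdnf was higher with the CHD5 shRNA. Its 3 arrays, 358, 356 and 446, all exceeded the control arrays, 253, 189.7 and 234, and the difference was 0.78 or 1.72-fold (SE 0.13, adjusted p = 0.00267, limma). It was the 1 gene of 8 to pass, against 3.65% of kept probes called higher and 2.25% called lower. In 4 of the 8, Fos, Egr1, Bdnf and Dusp1, the CHD5 shRNA arrays all lay above the control arrays, which held for 12.4% of kept probes. Fos gave 0.87 (SE 0.32, adjusted p = 0.123), Dusp1 gave 0.64 (SE 0.20, adjusted p = 0.0622) and Egr1 gave 0.31 (SE 0.22, adjusted p = 0.453) in limma. The median of the 8 was 0.33 against -0.02 over all kept probes. Without the dim control array, Bdnf gave 0.68 (adjusted p = 0.00157), Fos 0.98 (adjusted p = 0.0751), Dusp1 0.34 (adjusted p = 0.123) and Egr1 0.22, so the value for Dusp1 was smaller by more than 1.5 times while Bdnf passed either way. With that array left out, 4.02% of kept probes were called higher and 6.6% lower. Bdnf did not pass when the fit held only the 6 day 9 arrays (adjusted p = 0.255), and Dusp1 passed without control replicate a (0.85, adjusted p = 0.00883). Fos passed with neqc (1.55, adjusted p = 0.0495), and Dusp1 with quantile normalization (0.46, adjusted p = 0.0431), both in limma.

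At day 12, Bdnf and Dusp1 were higher with the CHD5 shRNA. The Bdnf arrays read 251, 209 and 291 against 158, 162 and 159 in the control, and the Dusp1 arrays read 1249, 1191 and 1738 against 747, 769 and 821. Neither gene overlapped between the groups. This held for these 2 of the 8 genes, and in either direction for 38.2% of kept probes. The difference was 0.64 or 1.56-fold for Bdnf (SE 0.13, adjusted p = 0.00653) and 0.82 or 1.76-fold for Dusp1 (SE 0.20, adjusted p = 0.0178) in limma. These 2 of 8 compare with 2.23% of kept probes called higher and 3.24% called lower, and the median of the 8 was 0.21 against 0.01 over all. Fos gave 0.57, Junb 0.34, Egr1 0.08 and Egr2 -0.23, none of which passed. Neither Bdnf (adjusted p = 0.0576) nor Dusp1 (adjusted p = 0.0741) passed without a detection filter, and Dusp1 was also lost without control replicate a or b or with median centring.

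**Figure D4:**
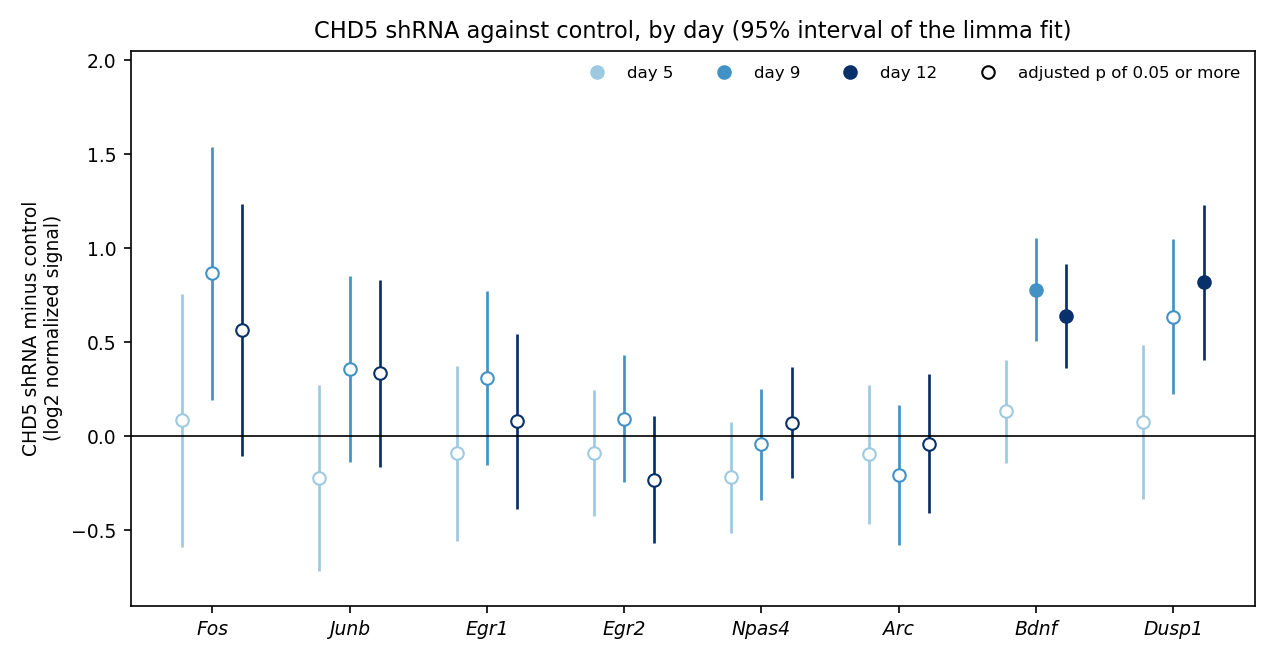
Log2 difference between the CHD5 shRNA and the control at each day for the 8 genes with a kept probe, as limma estimates with 95% intervals, filled where the adjusted p is under 0.05. Bdnf at days 9 and 12 and Dusp1 at day 12 are filled, and no day 5 point is.

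The day 12 values rest in part on 1 array. Through the shared fit, it also widened the SEs of Fos, Junb, Egr1 and Egr2 at the other days. On replicate c of the CHD5 shRNA at day 12, Fos read 509 where the other 2 arrays of that group read 156 and 120, and Junb (389), Egr1 (739.9) and Egr2 (521) were the highest of their groups by a wide margin. Relative to the mean of the other 2 arrays, Fos was 1.89 higher on the log2 scale, Egr1 1.22, Junb 1.17 and Egr2 0.84. These were the only 4 of the 11079 kept probes to lie more than 0.8 above the other 2 arrays there, and 0 lay more than 0.8 below. On the other 5 arrays of day 12 between 0 and 1 probe lay that far out, while the dim control array of day 9 had 725 higher and 947 lower. Dusp1 ranked 12 of all kept probes with 0.51, Bdnf ranked 37 with 0.35 and Npas4 ranked 62 with 0.30. The next inducible genes in that order, named after their values were seen, were Nr4a3 (0.60), Dusp6 (0.55) and Ier2 (0.53).

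Without that array, the differences from the control at day 12 were -0.06 for Fos, -0.05 for Junb, -0.33 for Egr1 and -0.51 for Egr2. Egr2 was then lower with the CHD5 shRNA (adjusted p = 0.013, limma), its remaining arrays reading 281 and 299.97 against 414, 419.5 and 409. Bdnf gave 0.52 (adjusted p = 0.0515) and Dusp1 0.65 (adjusted p = 0.116), so neither passed with 2 arrays, although both remaining arrays lay above all 3 controls. The summed signal of astrocyte markers on the array was 23504, between those of the other 2 arrays of the group, 22693 and 24007. For neuron markers the sum was 25979.5, the highest of a group range that began at 25296. What set the array apart was not tested.

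**Figure D5:**
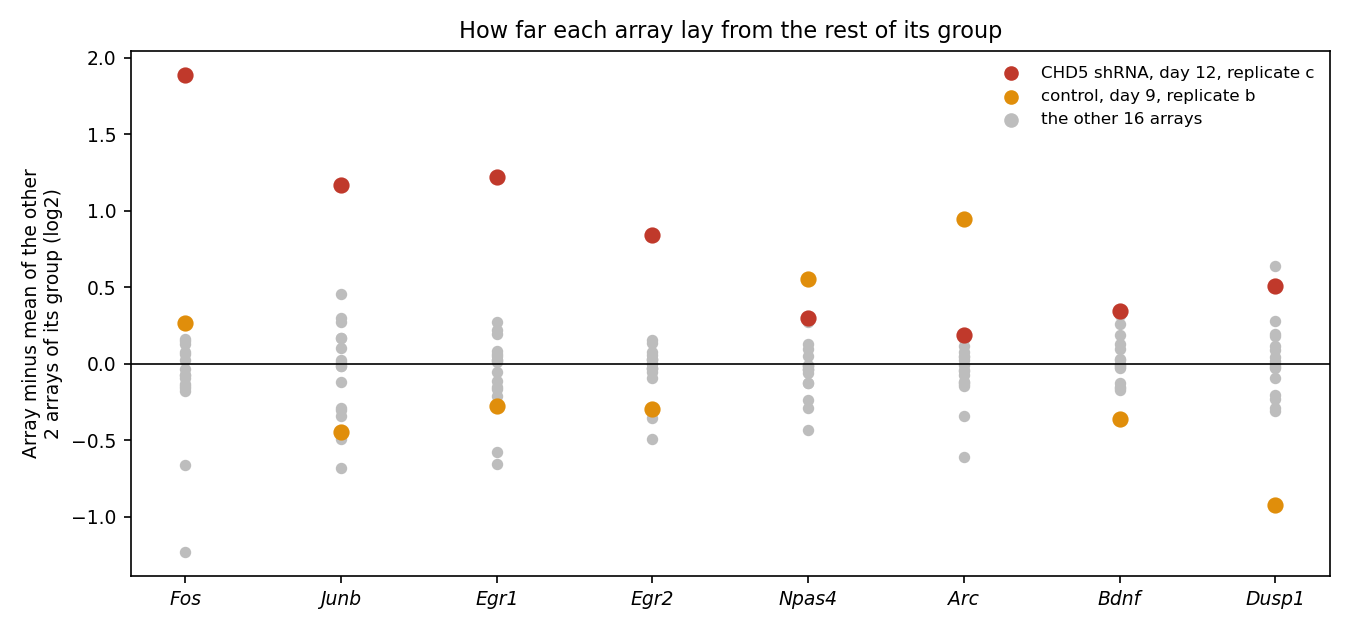
Log2 distance of each array from the mean of the other 2 arrays of its group, for the 8 genes with a kept probe, with replicate c of the CHD5 shRNA at day 12 in red, the dim control array of day 9 in orange and the other 16 in grey. The red array is the highest point for Fos, Junb, Egr1, Egr2 and Bdnf, reaching 1.89 for Fos.

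Whether the effect of the CHD5 shRNA itself differed between days was tested with interaction terms in the same fit. No member passed in limma. From day 5 to day 9 and from day 9 to day 12, 0% of kept probes passed, with 809 and 262 at an unadjusted p under 0.05, and from day 5 to day 12 it was 0.153%, with 748. The largest term relative to its error was Bdnf from day 5 to day 9, 0.65 with a 95% interval of 0.26 to 1.04 (adjusted p = 0.345). Dusp1 from day 5 to day 12 gave 0.74 with an interval of 0.16 to 1.32 (adjusted p = 0.465). Without the dim array 0.533% of kept probes passed as lower and 0.0903% as higher from day 5 to day 9, and again no member did. A change of the difference between days was therefore not shown for any of the 8, and comparisons that share a day share arrays.

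With 3 arrays against 3, an exact two-sided permutation test of a single gene cannot go below p = 0.1. Between lentiviruses, Bdnf and Dusp1 at days 9 and 12 gave that value, as did Fos and Egr1 at day 9 and Egr2 at day 5. It arises wherever 2 groups do not overlap, which held for 11.0%, 20.6% and 38.2% of kept probes at days 5, 9 and 12.

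Other genes of the same response were read from lists. Of 23 further inducible transcription factors, 16 had a kept probe. From day 5 to day 9 in the control, 8 were lower and 1 was higher, with a median of -0.64, where 12.8% and 9.18% of kept probes were called lower and higher. With the CHD5 shRNA 6 were lower and 0 higher, against 4.72% and 4.61%. The orphan receptors Nr4a3 (-2.18) and Nr4a2 (-1.67) and the bZIP factor Nfil3 (-1.81) had the largest falls in the control, with adjusted p values from 1.37e-08 to 4.28e-06 in limma. With the dim array left out, 9 were lower and 1 higher, against 10.1% and 10.6% of kept probes. The gene added was Maff, which was detected on only 1 array. The median was then -0.46, and Nr4a3, Nr4a2 and Nfil3 gave -2.15, -1.64 and -1.50. Against the control, the CHD5 shRNA gave 0 passing at day 5, 3 higher at day 9, Nfil3 (0.76), Nr4a3 (0.51) and Klf6 (0.44), and 2 higher at day 12, Nfil3 (0.79) and Klf6 (0.61), with none lower. Of all kept probes, 3.65% were called higher and 2.25% lower at day 9, and 2.23% higher and 3.24% lower at day 12. The median was 0.34 at day 9 and 0.19 at day 12, against -0.02 and 0.01 over all kept probes. Without the dim array the day 9 median was 0.13, Nfil3 (0.42) and Klf6 (0.41) passed, and Nr4a3 gave 0.44 (adjusted p = 0.0713, limma). Of all kept probes, 4.02% were then called higher and 6.6% lower.

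Of 21 activity-regulated effectors, 17 had a kept probe. In the control 10 were lower and 1 higher at day 9 than at day 5, and 13 were lower and 1 higher at day 12, against 12.5% and 11.1% of kept probes at that day. Sik1, a kinase that feeds back on CREB signalling and is listed on the array as Snf1lk, fell by 1.45, the neuropeptide gene Crh by 1.32 and Rgs2, a regulator of G protein signalling, by 1.09 to day 9. The counts to day 9 were again 10 and 1 without the dim array, against 10.1% and 10.6% of kept probes. Some genes counted as lower were detected on few arrays, Pcsk1 and Inhba on 6 each and Crh on 9. Gem, which passed only without the dim array, was detected on 4. If those were mainly day 5 arrays, such falls from day 5 were built into the filter in part, as for Npas4. Which arrays kept these probes was not tested. With the CHD5 shRNA, 8 were lower and 1 higher at day 9. Against the control, Adcyap1, which encodes the neuropeptide PACAP, was 0.94 higher at day 9 (adjusted p = 0.000358, limma) and 1.54 higher at day 12 (adjusted p = 4.8e-07). Sik1 was 0.83 higher at day 9 and 0.56 higher at day 12, Scg2, a secretogranin, was 0.65 higher at day 12, and Ptgs2, the inducible cyclooxygenase, was 0.60 lower at day 12. That made 2 higher and 0 lower at day 9 and 3 higher and 1 lower at day 12. Without the dim array, 3 were higher at day 9, Adcyap1 (0.87), Sik1 (0.77) and Crh (0.51), and 2 were lower, Ptgs2 (-0.35) and Tiparp (-0.50). This compares with 4.02% of kept probes called higher and 6.6% called lower without that array. Adcyap1 was the 1 gene of the 5 lists with a passing interaction term, 1.19 from day 5 to day 12 (adjusted p = 0.00405).

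Of 10 MAP kinase phosphatases and feedback inhibitors, 9 had a kept probe and none passed between lentiviruses on any day, although without the dim array Dusp6 was lower at day 9 (-0.82, adjusted p = 0.00558, limma). In the control from day 5 to day 9, Dusp6, which acts on ERK, fell by 0.70 (adjusted p = 0.0115), Spred1, an inhibitor of Ras signalling, rose by 0.58 (adjusted p = 0.00985) and 7 did not pass. When the dim array was left out, Spry4, a Sprouty inhibitor of receptor tyrosine kinase signalling, was also lower (-0.49, adjusted p = 0.00948). Over all kept probes, 10.1% were then called lower and 10.6% higher from day 5 to day 9 in the control. Of 24 upstream kinases and transcription factors, 17 had a kept probe, 0 passed between lentiviruses, and in the control 1 passed from day 5 to day 9, Prkaca (-0.68), a catalytic subunit of protein kinase A. Prkaca without the dim array gave -0.24 (adjusted p = 0.175, limma) and the 1 that passed was Map2k1 (0.38). Between lentiviruses at day 9 the calcineurin subunit Ppp3r1 (0.57) was then higher and Elk1 (-0.33), a ternary complex factor, was lower. In that comparison 4.02% of kept probes were called higher and 6.6% lower. By day 12 in the control, 3 were higher than at day 5, the calcineurin subunit Ppp3ca (0.73), Map2k1 (0.42) and Camk2a (0.33). Of 10 genes for BDNF processing and receptors, 8 had a kept probe and 0 passed between lentiviruses, with or without the dim array. In the control from day 5 to day 9, 3 were lower, the prohormone convertases Pcsk1 (-0.73) and Pcsk2 (-0.54) and the neurotrophin Ntf3 (-0.66), and 1 was higher, carboxypeptidase E, Cpe (0.85), and these counts were the same without the dim array. Pcsk1 and Ntf3 also stand in the effector list. Pcsk1 was detected on only 6 arrays, and the caution given with that list holds for its fall here too.

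On replicate c of the CHD5 shRNA at day 12, the medians of these 5 lists lay at most 0.12 above the other arrays of the group. The only 4 probes more than 0.8 above were members of the set, so no list gene could be among them. Some list genes stood high there, Nr4a3 (0.60), Dusp6 (0.55) and Ier2 (0.53), ranked 7, 9 and 10 of all kept probes.

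The level of each gene over the 18 arrays was set beside every other kept probe by Pearson's r, as a description. The 18 arrays fall into 6 groups, so r carries mostly the differences between groups. Egr1 and Egr2 were each the probe most like the other (r = 0.903). Bdnf was most like Nfil3 (0.983), Crem (0.978) and Nr4a3 (0.978), all 3 of them inducible transcription factors, and Dusp1 was most like Nfil3 (0.989), followed by LOC501145 (0.981) and the arginine methyltransferase Prmt1 (0.979).

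Signals of cell type markers moved with these comparisons. The sum of the normalized signals of 9 astrocyte markers was 8594 to 9020 in the control at day 5, 24356 to 29815 at day 9 without the dim array, and 39815 to 42129 at day 12. With the CHD5 shRNA it was 6741 to 7106, 15634 to 19902 and 22693 to 24007. Of the 9, 6 were lower with the CHD5 shRNA at day 9 and 7 at day 12, with medians of -0.84 and -0.83, and 8 rose from day 5 to day 9 in the control. Without the dim array 7 were lower with the CHD5 shRNA at day 9, at the same median of -0.84, and 8 again rose. Of all kept probes, 6.6% were then called lower with the CHD5 shRNA at day 9, and 10.6% rose in the control. The sum of 6 excitatory neuron markers was 9651 to 10040 in the control at day 5, 4923 to 6105 at day 9 without the dim array, and 4274 to 4889 at day 12, and with the CHD5 shRNA it was 9335 to 10128, 6351 to 6812 and 5428 to 5709. Of those 6, 3 fell in the control from day 5 to day 9, and 2 were higher with the CHD5 shRNA at day 9 and 1 at day 12. The 9 general neuron markers were detected on all 3 arrays of every group. Of these, 3 were lower from day 5 to day 9 in the control, with a median of -0.23, and 1 was higher at day 9 and 1 at day 12 with the CHD5 shRNA.

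Of 9 oligodendrocyte lineage markers, 8 rose from day 5 to day 9 in the control and 2 were lower with the CHD5 shRNA at each of days 9 and 12. Of 3 fibroblast markers, 2 were lower with the CHD5 shRNA at days 9 and 12. Of 7 interneuron markers, 1 was lower at each of these days, and 4 rose from day 5 to day 9 in the control. Without the dim array, 3 oligodendrocyte lineage markers were lower and 1 was higher at day 9 with the CHD5 shRNA, and 7 rose in the control. With the CHD5 shRNA 3 interneuron markers were then lower, and 1 excitatory neuron marker was higher. The shares of kept probes called between lentiviruses were 6.6% lower and 4.02% higher without that array. None of the 7 microglia markers was detected on all 3 arrays of any group, and neither of 2 kept endothelial markers passed in any comparison. The higher Bdnf and Dusp1 signals with the CHD5 shRNA, and the falls over time, thus coincided with a change in astrocyte and neuronal marker signal in the same samples, and the part of cell makeup in them was not tested.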

How the data were processed

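Total RNA from 18 samples of rat cortical neurons in 6 groups of 3 was read on Illumina RatRef-12 arrays. Per the labels and the study's methods, the authors exported the mean bead intensity of each probe from GenomeStudio with a detection p-value (the submitters' processing notes give its version as 1.1.1), and the deposited intensity values carry no background subtraction or normalization. The deposited detection p-value compares a probe with negative control beads. Of the 18 samples, 6, those of replicate a, were measured again, and the first measurement was used.

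Intensities were taken to log2, and probes with a detection p of at most 0.02 on at least 1 array were kept, 11079 of 22523. Each array was converted to Z-scores and put back on the mean spread and level, following the study's use of Z-scores, which makes changes relative to the average probe. Group means were fitted with limma 3.58.1 in R 4.3.3 (lmFit, eBayes) over all 18 arrays, since small groups gain from a shared error, with Benjamini-Hochberg adjustment within each comparison and a threshold of 0.05. The fit was tested on simulated data. The number of arrays, 3 per group, limits the precision.

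The named genes are the 10 set members, by array symbol without the endings _predicted and _mapped, and of the 5 lists the genes that passed with the largest changes. The set, the gene lists, the cell type markers and the tests were chosen with earlier results of these data known. Where all arrays of a group missed detection, a fold is given as a bound against the lowest signal detected on each array. Samples with the same letter deviated together, every correlation over 0.1, in 2 of 9 pairs of groups. These were CHD5 shRNA and control at day 5 (0.27, 0.17 and 0.38) and control days 9 and 12 (0.14, 0.26 and 0.17). No label says what a letter marks, and whether the letters pair the samples was not tested. Alternatives covered normalization, detection filter, array weights, the arrays fitted, replicate blocks, repeat measurements and the omission of each array. Promoter windows came from RefSeq, assembly GRCr8. Probe positions in the array's annotation name no build and were not used.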

Additional observations from a re-analysis of the deposited data

How the results depend on the processing

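No value of any of the 8 genes in the 12 comparisons changed sign among those that had passed. Of the genes' values under all alternatives 1675 stayed on their side of the threshold, 46 no longer passed and 19 newly passed. The alternatives in normalization moved the median of all kept probes by no more than 0.1 on the log2 scale.

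In this section, each array left out means each array of the groups compared. Genes that passed at day 9 between the lentiviruses numbered 1 in the fit reported. They numbered 2 with quantile normalization, 2 with neqc at an offset of 16, 2 with a replicate block of day and letter, 0 with only the arrays compared, 3 by a Z-ratio beyond 1.5 with an unadjusted p under 0.05, and 1 to 2 with each array left out (2 without control replicate a). Bdnf at day 9 lost its call with only the arrays compared (adjusted p = 0.255). Fos newly passed with neqc (adjusted p = 0.0495) and Dusp1 with quantile normalization (adjusted p = 0.0431) in limma. At day 12 the number was 2, and it was 1 with median centring, 0 with no detection filter and 1 to 2 with each array left out. There Dusp1 was lost with median centring (adjusted p = 0.284), without control replicate a (0.0809) or b (0.063), and without CHD5 shRNA replicate c (0.116). Bdnf, too, was lost without CHD5 shRNA replicate c (0.0515), and the 1 gene that passed then was Egr2, which was lower (-0.51, adjusted p = 0.013, limma). Bdnf and Dusp1 were both lost with no filter (0.0576 for Bdnf and 0.0741 for Dusp1).

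From day 5 to day 9 in the control, 7 genes passed, 3 with array weights and 6 to 7 with each array left out. These counts, and those of the other falls from day 5 below, include Npas4, kept only through its day 5 arrays. For day 12 against day 5 there, 5 passed, and Junb was the gene lost under the alternatives named with it. From day 9 to day 12 in the control, 2 passed, and 0 with median centring, no filter, array weights or only the arrays compared, 4 by the Z-ratio, and 0 to 3 with each array left out. From day 5 to day 9 with the CHD5 shRNA, 4 passed, and 7 with only the arrays compared. From day 9 to day 12 with the CHD5 shRNA, 1 passed, 0 with median centring or no filter, and 0 to 2 with each array left out. Of the interaction terms 0 passed, and by the Z-ratio 1 did from day 5 to day 9 and 2 from day 5 to day 12.

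A replicate block of day and letter gave Dusp1 at day 9 an adjusted p of 0.038 at the same difference of 0.64, and the replicate blocks changed no other call among the members. Each gene has 1 probe, so trying another probe was not possible. Signals near background limit Arc and Npas4, and Fosb and Nr4a1 were not above background.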
